A study of Homo sapiens with 6 samples.

Results

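DNA replication and nucleotide supply genes were followed across 3 human thyroid cancer cell lines in which the retinoic acid-binding protein CRABP2 had been depleted or supplied. The 36 genes were chosen by name as parts of the replication machinery and as enzymes that make deoxynucleotides, and all 36 were found by gene identifier among the 58884 genes of the expression table. The choice was made with earlier results of these data known. Shares of the members set beside those of all genes therefore describe this set and are not an independent test. RNA was sequenced from cultured cells. FTC-133 (a follicular thyroid carcinoma line) and BHT-101 (an anaplastic line) received small interfering RNA (siRNA), either directed at CRABP2 (siCRABP2) or a control (siControl), and 8505C (an anaplastic line) was given a vector that overexpresses CRABP2 or the empty vector. Each condition was 1 library, so within a line there was no replicate error and no test, and the labels do not say whether cultures were grown separately or whether the vector cells were a clone or a pool.

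Values are FPKM, reads scaled for the exon length of the gene and the depth of the library. The read totals recovered from them ran from 22084110 to 27958622 per library. CRABP2 had 11.4 FPKM with siCRABP2 and 27.3 FPKM with siControl in BHT-101, 0.170 FPKM with siCRABP2 and 8.94 FPKM with siControl in FTC-133, and 38.0 FPKM with the CRABP2 vector and 0.607 FPKM with the empty vector in 8505C. The target therefore differed in the labelled direction in each line, with the ratio between libraries nearest to 1 in BHT-101. Of 10 thyroid follicular markers, 8 or 9 were under 1 FPKM in every library. The defining markers TG and SLC5A5 were below 0.05 FPKM throughout, while PAX8 was above 1 FPKM in FTC-133 alone and NKX2-1 in FTC-133 and 8505C. In BHT-101, 2 other markers of the list reached 1 FPKM. The highest value there was 3.20 FPKM with siCRABP2 and 4.06 FPKM with siControl. Of 10 markers of other cell types, 8 to 10 were under 1 FPKM in every library, and the highest was CD14, at 12.9 FPKM with the CRABP2 vector and 16.4 FPKM with the empty vector in 8505C.

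Replication begins at origins that are licensed by the loading of the MCM2-7 helicase. The helicase is then switched on, the unwound DNA is primed, and polymerases held by a sliding clamp copy it, while ribonucleotide reductase, thymidylate synthase and thymidine kinase supply the building blocks. Many of these genes are transcribed as cells pass from G1 into S phase, under E2F factors that the retinoblastoma protein restrains, so their RNA is commonly read as a sign of dividing cells. In bulk RNA, fewer cells of a kind and less RNA per cell cannot be told apart.

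Promoter motifs that the selection did not use were more frequent among the members than among all genes, though not present in every member. RefSeq windows of 300 bases (250 before and 50 after the gene's start, GRCh38.p14) were present for 33 members. E2F-type sequences (TTTCCCGC, TTTCGCGC, TTTGCCGC or TTTGGCGC on either strand) were found for 18 of these 33 genes, or 54.5%, against 3.99% of 27305 genes in the table and 6.56% of the 10073 genes measured in this study. By window, 3.31% of 35116 promoters held one. CCAAT, the core of the NF-Y motif, was found on either strand for 20 of 33 members, or 60.6%, against 39.7% of all genes and 43.1% of the measured ones, and 34.6% of all windows. The windows shown are those of the members that differed most with CRABP2 in 6 of the 8 roles and that have 1 window each, and capitals mark E2F-type and CCAAT matches on either strand. A match describes these letters and is not a mapped binding site.
CDC6, chr17:40287629-40287928, plus strand: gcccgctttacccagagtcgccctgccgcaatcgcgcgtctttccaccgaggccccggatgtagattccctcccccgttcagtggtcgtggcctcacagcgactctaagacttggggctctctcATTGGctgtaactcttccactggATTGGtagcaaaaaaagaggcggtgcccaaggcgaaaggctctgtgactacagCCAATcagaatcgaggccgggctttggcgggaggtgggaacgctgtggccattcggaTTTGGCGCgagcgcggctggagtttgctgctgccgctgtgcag
MCM2, chr3:127598161-127598460, plus strand: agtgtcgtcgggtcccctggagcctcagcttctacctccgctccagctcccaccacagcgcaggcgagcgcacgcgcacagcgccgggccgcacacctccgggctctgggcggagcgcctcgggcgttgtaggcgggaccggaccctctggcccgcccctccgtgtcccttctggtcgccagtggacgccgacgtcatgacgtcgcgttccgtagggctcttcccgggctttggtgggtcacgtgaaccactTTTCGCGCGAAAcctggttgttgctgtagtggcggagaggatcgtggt
MCM10, chr10:13161308-13161607, plus strand: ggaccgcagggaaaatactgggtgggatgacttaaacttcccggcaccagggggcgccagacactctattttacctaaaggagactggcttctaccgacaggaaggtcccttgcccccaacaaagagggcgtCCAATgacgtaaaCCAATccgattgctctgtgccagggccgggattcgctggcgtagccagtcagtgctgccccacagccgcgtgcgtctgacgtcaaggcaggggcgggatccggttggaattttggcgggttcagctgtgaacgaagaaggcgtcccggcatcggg
PRIM1, chr12:56752274-56752573, minus strand: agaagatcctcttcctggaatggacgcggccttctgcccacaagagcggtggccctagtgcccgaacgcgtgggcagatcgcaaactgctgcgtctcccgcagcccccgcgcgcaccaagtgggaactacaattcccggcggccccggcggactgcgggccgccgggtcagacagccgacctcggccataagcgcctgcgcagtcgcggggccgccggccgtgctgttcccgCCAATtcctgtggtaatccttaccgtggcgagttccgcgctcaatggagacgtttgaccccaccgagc
RFC3, chr13:33817899-33818198, plus strand: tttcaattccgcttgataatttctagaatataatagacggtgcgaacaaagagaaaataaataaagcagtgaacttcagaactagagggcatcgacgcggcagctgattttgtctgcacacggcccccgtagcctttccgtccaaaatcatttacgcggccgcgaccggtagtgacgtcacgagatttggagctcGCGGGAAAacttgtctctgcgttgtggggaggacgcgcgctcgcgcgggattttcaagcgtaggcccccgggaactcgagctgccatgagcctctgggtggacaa
LIG1, chr19:48170295-48170594, minus strand: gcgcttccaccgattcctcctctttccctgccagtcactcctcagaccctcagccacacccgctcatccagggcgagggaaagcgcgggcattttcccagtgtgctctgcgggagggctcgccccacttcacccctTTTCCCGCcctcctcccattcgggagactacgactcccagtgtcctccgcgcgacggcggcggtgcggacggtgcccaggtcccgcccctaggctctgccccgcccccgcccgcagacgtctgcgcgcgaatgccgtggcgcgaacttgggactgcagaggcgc
CDC6 held 1 E2F-type match beside 3 CCAAT matches. MCM2 held 2 E2F-type matches that overlap, 1 on each strand, and no CCAAT. RFC3 and LIG1 held 1 E2F-type match each and no CCAAT. MCM10 held 2 CCAAT matches and PRIM1 held 1, with none of the 4 E2F-type sequences in either window. The median difference with CRABP2 of members with and without an E2F-type match was -0.53 and -0.44 in FTC-133, -0.07 and -0.07 in BHT-101, and 0.51 and 0.45 in 8505C on the log2(FPKM + 1) scale. For CCAAT the medians of members with and without a match were -0.70 and -0.31 in FTC-133, -0.078 and -0.005 in BHT-101, and 0.51 and 0.41 in 8505C. These groups were not tested against each other.

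Depletion of CRABP2 went with lower replication gene RNA across nearly the whole set in FTC-133, with a small shift the same way in BHT-101, and the CRABP2 vector went with higher RNA of most members in 8505C. In FTC-133 the members summed to 2404 CPM (counts scaled to a common library size) with siCRABP2 and 3531 CPM with siControl. In BHT-101 the sums were 2438 CPM with siCRABP2 and 2606 CPM with siControl, and in 8505C they were 815 CPM with the CRABP2 vector and 595 CPM with the empty vector. The median member had 9.64 FPKM with siCRABP2 and 15.3 FPKM with siControl in FTC-133, 8.39 FPKM with siCRABP2 and 8.88 FPKM with siControl in BHT-101, and 2.59 FPKM with the CRABP2 vector and 1.42 FPKM with the empty vector in 8505C. The larger gaps were thus in FTC-133 and 8505C. CRABP2 itself differed by a ratio of 0.0190 in FTC-133 and 0.418 in BHT-101 (siCRABP2 over siControl), and of 62.7 in 8505C (vector over empty vector). The ratio in FTC-133 rests on 5 CRABP2 reads with siCRABP2, and that in 8505C on 15 with the empty vector. Whether the gaps relate to the size of the CRABP2 difference was not tested.

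**Figure D1:**
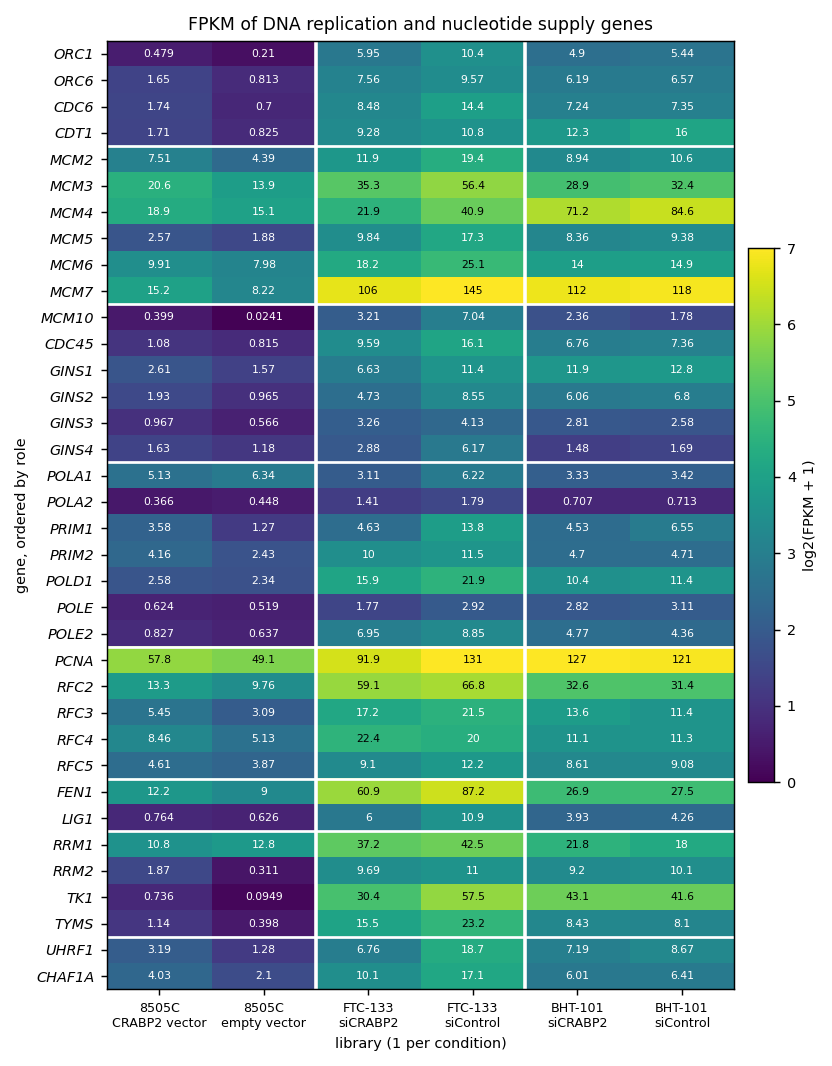
FPKM of the 36 members (rows, ordered by role) in the 6 libraries (columns, 1 per condition); numbers are FPKM and colour is log2(FPKM + 1). The 8505C columns are darker for nearly every gene, and within FTC-133 the siCRABP2 column is lower than the siControl column for 35 of 36 members.

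Differences within a line are given on the log2(FPKM + 1) scale, which understates the change of genes near or under 1 FPKM. In FTC-133, 35 of 36 members were lower with siCRABP2, against 53.9% of the 12832 genes measured there (FPKM of at least 1 in 1 or both libraries of the line). Their median was -0.53, against -0.04 for all measured genes. A step of 0.5 or more downward was seen for 21 members, against 13.1% of all genes, and a step of 1 or more for 2 members, PRIM1 and UHRF1, against 2.35%. RFC4 was the exception. All 36 members were measured in this line.

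In BHT-101, 27 of 36 members were lower with siCRABP2, against 46.7% of 12055 measured genes. The median was -0.07, against 0.01 for all genes, and the range was -0.45 to 0.27. No member reached a step of 0.5 in either direction, against 2.36% of all genes higher and 1.66% lower by that much. Of the 36 members, 35 were measured, POLA2 being under 1 FPKM in both libraries.

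In 8505C, 33 of 36 members were higher with the CRABP2 vector, against 52.8% of 11731 measured genes. The median was 0.43, against 0.02 for all genes, and 0.73 as a plain log2 ratio of FPKM. A step of 0.5 or more upward was seen for 16 members, against 9.88% of all genes, and a step of 1 or more for 2 members, RRM2 and PRIM1, against 1.85%. The 3 members lower with the vector were POLA1, POLA2 and RRM1, against 47.2% of all genes. Only 28 members were measured in this line, since ORC1, MCM10, GINS3, POLA2, POLE, POLE2, LIG1 and TK1 were under 1 FPKM in both libraries, so the count of 33 includes genes with few reads.

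Counting error was set by 95% exact (Clopper-Pearson) intervals on the ratio of the reads in both libraries, which cover counting error only. Reads are not independent molecules where PCR copies them, so these intervals are a lower limit on the error. In FTC-133 the interval lay below a ratio of 1 for 35 members, against 38.3% of the 7305 measured genes whose reads came out whole with GENCODE release 29 exon lengths, and above it for 1 member, RFC4, against 30.0%. In BHT-101 it lay below 1 for 11 members, against 18.6% of 6759 genes, and above 1 for 4 members, against 22.0%. In 8505C it lay above 1 for 28 members, against 33.3% of 6538 genes, and below 1 for 2 members, against 29.4%. The members above 1 include ORC1, MCM10, GINS3 and TK1, which were not measured in 8505C, whereas the background holds measured genes only. The BHT-101 share below 1 was thus nearer to the background than that of the other lines.

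**Figure D2:**
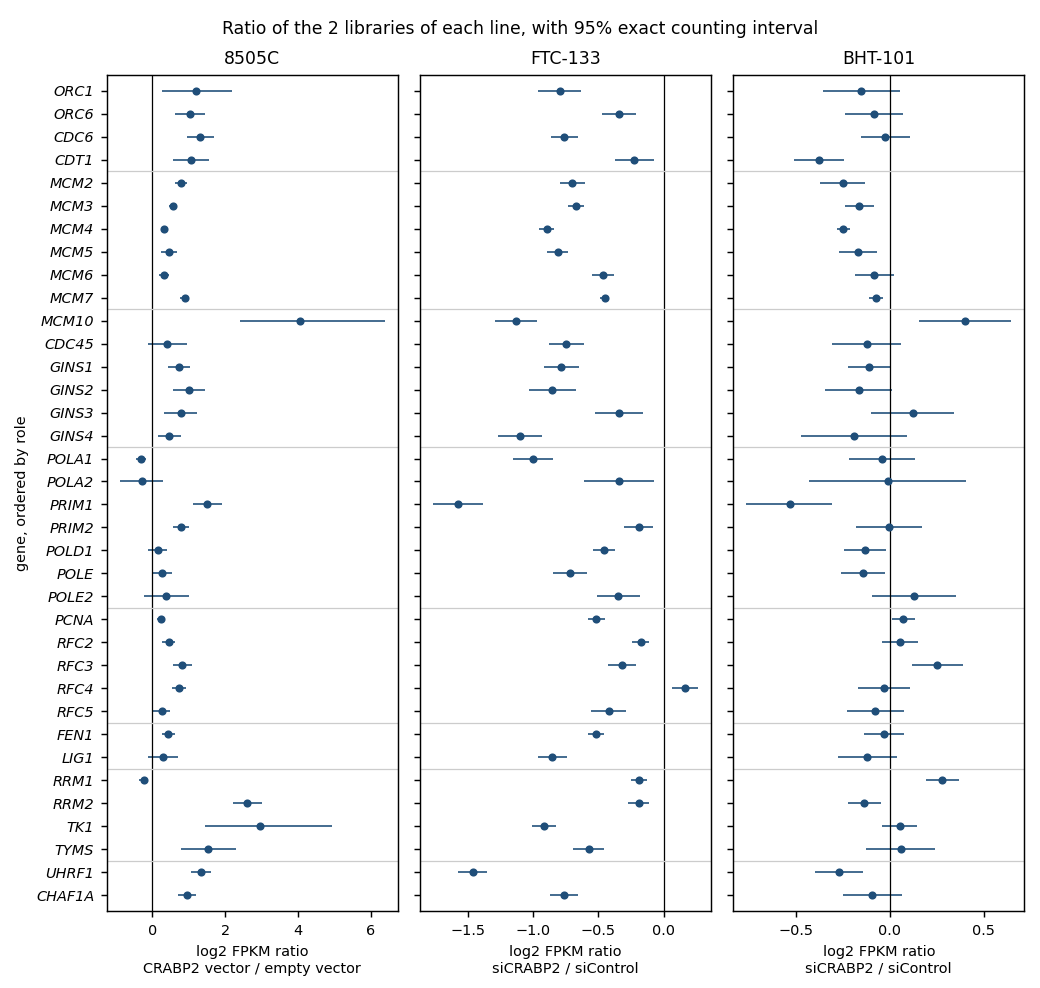
Ratio of FPKM between the 2 libraries of each line for every member (log2 axis, different range in each panel), as siCRABP2 over siControl in BHT-101 and FTC-133 and CRABP2 vector over empty vector in 8505C, with bars for the 95% exact counting interval. Points lie left of 0 for 35 of 36 members in FTC-133 and right of 0 for 33 of 36 in 8505C, and cluster near 0 in BHT-101.

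Origin licensing genes had median differences of -0.50 in FTC-133, -0.10 in BHT-101 and 0.56 in 8505C. CDC6, the ATPase that helps load the helicase, had 8.48 FPKM with siCRABP2 and 14.4 FPKM with siControl in FTC-133, 7.24 FPKM with siCRABP2 and 7.35 FPKM with siControl in BHT-101, and 1.74 FPKM with the CRABP2 vector and 0.700 FPKM with the empty vector in 8505C. The BHT-101 libraries were alike for CDC6, with a ratio of 0.984 (interval 0.899 to 1.08). CDT1, the partner of CDC6 in loading, had 12.3 FPKM with siCRABP2 and 16.0 FPKM with siControl in BHT-101, 9.28 FPKM with siCRABP2 and 10.8 FPKM with siControl in FTC-133, and 1.71 FPKM with the CRABP2 vector and 0.825 FPKM with the empty vector in 8505C. Its ratio was 0.770 (0.702 to 0.844) in BHT-101 and 0.856 (0.771 to 0.951) in FTC-133, so CDT1 was lower beyond counting error in both. ORC1 and ORC6, subunits of the origin recognition complex, were lower with siCRABP2 in both lines, at -0.13 and -0.07 in BHT-101 and -0.71 and -0.30 in FTC-133, and higher with the vector in 8505C.

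All 6 subunits of the MCM2-7 helicase, the motor that unwinds DNA, were lower with siCRABP2 in FTC-133 and in BHT-101 and higher with the CRABP2 vector in 8505C, with medians of -0.66, -0.15 and 0.42. MCM2 had 11.9 FPKM with siCRABP2 and 19.4 FPKM with siControl in FTC-133, 8.94 FPKM with siCRABP2 and 10.6 FPKM with siControl in BHT-101, and 7.51 FPKM with the CRABP2 vector and 4.39 FPKM with the empty vector in 8505C. MCM3 had 35.3 FPKM with siCRABP2 and 56.4 FPKM with siControl in FTC-133, 28.9 FPKM with siCRABP2 and 32.4 FPKM with siControl in BHT-101, and 20.6 FPKM with the CRABP2 vector and 13.9 FPKM with the empty vector in 8505C. MCM4 had 21.9 FPKM with siCRABP2 and 40.9 FPKM with siControl in FTC-133, 71.2 FPKM with siCRABP2 and 84.6 FPKM with siControl in BHT-101, and 18.9 FPKM with the CRABP2 vector and 15.1 FPKM with the empty vector in 8505C. These subunits form one ring, yet their levels differed widely within a library. MCM7 had 15.2 FPKM with the CRABP2 vector and 8.22 FPKM with the empty vector in 8505C, against 106 FPKM with siCRABP2 and 145 FPKM with siControl in FTC-133 and 112 FPKM with siCRABP2 and 118 FPKM with siControl in BHT-101, where it was the most abundant subunit. The ratio of MCM4 to MCM7 in FPKM was accordingly 1.24 with the CRABP2 vector and 1.83 with the empty vector in 8505C, against 0.206 and 0.282 with siCRABP2 and siControl in FTC-133 and 0.635 and 0.717 with siCRABP2 and siControl in BHT-101. MCM2 shares 23.6% and MCM7 8.94% of exon bases with genes of the opposite strand, and since the strand setting of the counting is not given, reads of such pairs are uncertain.

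The helicase is switched on when CDC45 and the GINS complex join it, with MCM10. These 6 genes had medians of -0.72 in FTC-133, -0.10 in BHT-101 and 0.39 in 8505C. MCM10 had 3.21 FPKM with siCRABP2 and 7.04 FPKM with siControl in FTC-133, 2.36 FPKM with siCRABP2 and 1.78 FPKM with siControl in BHT-101, and 0.399 FPKM with the CRABP2 vector and 0.0241 FPKM with the empty vector in 8505C. In 8505C these were 48 reads with the CRABP2 vector and 3 with the empty vector, a ratio of 16.6 with a counting interval of 5.34 to 83.1. MCM10 was thus lower with siCRABP2 in FTC-133 and higher with it in BHT-101 (ratio 1.32, interval 1.11 to 1.56). GINS1 had 6.63 FPKM with siCRABP2 and 11.4 FPKM with siControl in FTC-133, 11.9 FPKM with siCRABP2 and 12.8 FPKM with siControl in BHT-101, and 2.61 FPKM with the CRABP2 vector and 1.57 FPKM with the empty vector in 8505C. GINS2 had 4.73 FPKM with siCRABP2 and 8.55 FPKM with siControl in FTC-133, 6.06 FPKM with siCRABP2 and 6.80 FPKM with siControl in BHT-101, and 1.93 FPKM with the CRABP2 vector and 0.965 FPKM with the empty vector in 8505C. CDC45, GINS3 and GINS4 were lower with siCRABP2 in FTC-133, between -0.89 and -0.27, and GINS4 shares 23.6% and GINS3 10.9% of exon bases with opposite-strand genes.

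Primase makes the RNA primer that polymerase alpha extends, and polymerases delta and epsilon copy the strands. Differences of these 7 genes spanned -1.40 to -0.17 in FTC-133 and -0.26 to 1.02 in 8505C. PRIM1 (ENSG00000198056), the catalytic subunit of primase, had 4.63 FPKM (309 reads) with siCRABP2 and 13.8 FPKM (842 reads) with siControl in FTC-133, the lowest ratio of any member there, 0.335 (0.293 to 0.382). It had 4.53 FPKM with siCRABP2 and 6.55 FPKM with siControl in BHT-101, again the lowest ratio, 0.691 (0.590 to 0.809), and 3.58 FPKM with the CRABP2 vector and 1.27 FPKM with the empty vector in 8505C, a ratio of 2.83 (2.14 to 3.76). PRIM1 shares 16.2% of exon bases with a gene on its own strand and 5.42% with genes on the opposite strand, so some of its reads are uncertain. PRIM2, the other primase subunit, had 10.0 FPKM with siCRABP2 and 11.5 FPKM with siControl in FTC-133, 4.70 FPKM with siCRABP2 and 4.71 FPKM with siControl in BHT-101, and 4.16 FPKM with the CRABP2 vector and 2.43 FPKM with the empty vector in 8505C. The ratio of PRIM1 to PRIM2 in FPKM was therefore lower in the arm with less CRABP2 in all 3 lines. It was 0.462 with siCRABP2 and 1.21 with siControl in FTC-133, 0.963 with siCRABP2 and 1.39 with siControl in BHT-101, and 0.861 with the CRABP2 vector and 0.522 with the empty vector in 8505C.

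POLA1, the catalytic subunit of polymerase alpha, had 3.11 FPKM with siCRABP2 and 6.22 FPKM with siControl in FTC-133, 3.33 FPKM with siCRABP2 and 3.42 FPKM with siControl in BHT-101, and 5.13 FPKM with the CRABP2 vector and 6.34 FPKM with the empty vector in 8505C. It was thus lower with siCRABP2 in FTC-133 and lower with the vector in 8505C, where its ratio was 0.809 (0.733 to 0.893). POLA2, its accessory subunit, was the least abundant member in the siRNA lines, with 1.41 FPKM with siCRABP2 and 1.79 FPKM with siControl in FTC-133, 0.707 FPKM with siCRABP2 and 0.713 FPKM with siControl in BHT-101, and 0.366 FPKM with the CRABP2 vector and 0.448 FPKM with the empty vector in 8505C. POLA2 shares 35.1% of exon bases with a gene on its own strand. POLD1 and POLE, the catalytic subunits of polymerases delta and epsilon, and POLE2, an accessory subunit of epsilon, were lower with siCRABP2 in FTC-133, between -0.50 and -0.31, and their counting intervals in 8505C all included 1.

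The sliding clamp PCNA and its loader had differences of both signs in BHT-101, with role medians of -0.31 in FTC-133, 0.05 in BHT-101 and 0.41 in 8505C. PCNA had 91.9 FPKM with siCRABP2 and 131 FPKM with siControl in FTC-133, 127 FPKM with siCRABP2 and 121 FPKM with siControl in BHT-101, and 57.8 FPKM with the CRABP2 vector and 49.1 FPKM with the empty vector in 8505C. RFC3, a loader subunit, had 17.2 FPKM with siCRABP2 and 21.5 FPKM with siControl in FTC-133, 13.6 FPKM with siCRABP2 and 11.4 FPKM with siControl in BHT-101, and 5.45 FPKM with the CRABP2 vector and 3.09 FPKM with the empty vector in 8505C. Both were lower with siCRABP2 in FTC-133 and higher with it in BHT-101. RFC4, another loader subunit, was the one member higher with siCRABP2 in FTC-133, with 22.4 FPKM with siCRABP2 and 19.99 FPKM with siControl (ratio 1.12, interval 1.05 to 1.20). It had 11.1 FPKM with siCRABP2 and 11.3 FPKM with siControl in BHT-101, and 8.46 FPKM with the CRABP2 vector and 5.13 FPKM with the empty vector in 8505C. The other loader subunits RFC2 and RFC5 were lower with siCRABP2 in FTC-133, at -0.17 and -0.39.

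Okazaki fragments are trimmed by the flap endonuclease FEN1 and sealed by the ligase LIG1. FEN1 had 60.9 FPKM with siCRABP2 and 87.2 FPKM with siControl in FTC-133, 26.9 FPKM with siCRABP2 and 27.5 FPKM with siControl in BHT-101, and 12.2 FPKM with the CRABP2 vector and 9.0 FPKM with the empty vector in 8505C. LIG1 had 6.0 FPKM with siCRABP2 and 10.9 FPKM with siControl in FTC-133, 3.93 FPKM with siCRABP2 and 4.26 FPKM with siControl in BHT-101, and 0.764 FPKM with the CRABP2 vector and 0.626 FPKM with the empty vector in 8505C. Both were at least 0.5 lower in FTC-133, and neither had a BHT-101 interval clear of 1.

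Nucleotide supply split between the lines. Ribonucleotide reductase, which makes deoxynucleotides, pairs the large subunit RRM1 with the small subunit RRM2, the one that limits its activity in S phase. RRM1 had 37.2 FPKM with siCRABP2 and 42.5 FPKM with siControl in FTC-133, 21.8 FPKM with siCRABP2 and 18.0 FPKM with siControl in BHT-101, and 10.8 FPKM with the CRABP2 vector and 12.8 FPKM with the empty vector in 8505C. RRM1 was thus higher with siCRABP2 in BHT-101 (ratio 1.21, interval 1.14 to 1.29) and lower with the vector in 8505C (0.847, interval 0.779 to 0.922). RRM2 (ENSG00000171848) had 9.69 FPKM with siCRABP2 and 11.0 FPKM with siControl in FTC-133, 9.20 FPKM with siCRABP2 and 10.1 FPKM with siControl in BHT-101, and 1.87 FPKM (379 reads) with the CRABP2 vector and 0.311 FPKM (65 reads) with the empty vector in 8505C. In 8505C its ratio was 6.03 (4.63 to 7.98), and its difference of 1.13 was the largest among members in that line. RRM2 shares 20.2% of exon bases with a gene on its own strand, and its FPKM came out whole in reads with a length of 9155 bases in place of the 5323 of GENCODE release 29, so levels of RRM2 against other genes carry that doubt.

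The balance of the small subunits also differed by line. RRM2B, the p53-inducible small subunit, had 20.1 FPKM with the CRABP2 vector and 24.9 FPKM with the empty vector in 8505C, against 7.03 FPKM with siCRABP2 and 8.36 FPKM with siControl in FTC-133 and 5.37 FPKM with siCRABP2 and 6.44 FPKM with siControl in BHT-101. The ratio of RRM2 to RRM2B in FPKM was 0.0931 with the CRABP2 vector and 0.0125 with the empty vector in 8505C, and between 1.32 and 1.71 in the other libraries. Thymidine kinase behaved alike: TK1 (ENSG00000167900), the cytosolic S-phase enzyme, had 0.736 FPKM (30 reads) with the CRABP2 vector and 0.0949 FPKM (4 reads) with the empty vector in 8505C, a ratio of 7.76 (2.73 to 30.3). TK1 had 30.4 FPKM with siCRABP2 and 57.5 FPKM with siControl in FTC-133, and 43.1 FPKM with siCRABP2 and 41.6 FPKM with siControl in BHT-101. Its mitochondrial counterpart TK2 had 8.62 FPKM with the CRABP2 vector and 8.31 FPKM with the empty vector in 8505C, so TK1 to TK2 was 0.0854 with the CRABP2 vector and 0.0114 with the empty vector there, against 8.57 to 19.0 in the siRNA lines. TK2 itself was lower with siCRABP2 in FTC-133, at 2.03 FPKM against 6.71 FPKM with siControl. TK1 to TK2 was thus higher with siCRABP2 there, at 15.0 against 8.57. In BHT-101 TK2 had 2.27 FPKM with siCRABP2 and 2.63 FPKM with siControl. TYMS, which makes thymidylate, was at -0.55 with siCRABP2 in FTC-133 and at 0.62 with the vector in 8505C, and shares 46.6% of exon bases with opposite-strand genes, chiefly ENOSF1.

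The 2 members that are chromatin partners of the fork had the most negative role median in FTC-133, -1.03, beside -0.16 in BHT-101 and 0.79 in 8505C. A median of 2 genes rests on each of them. The 9 other replication-coupled chromatin genes had medians of -0.30 in FTC-133, -0.01 in BHT-101 and 0.20 in 8505C. UHRF1 (ENSG00000276043), which reads hemimethylated DNA and brings in DNMT1, had 6.76 FPKM with siCRABP2 and 18.7 FPKM with siControl in FTC-133, 7.19 FPKM with siCRABP2 and 8.67 FPKM with siControl in BHT-101, and 3.19 FPKM with the CRABP2 vector and 1.28 FPKM with the empty vector in 8505C. Its ratios were 0.362 (0.335 to 0.390) in FTC-133, 0.829 (0.758 to 0.906) in BHT-101 and 2.50 (2.06 to 3.05) in 8505C. CHAF1A, the large subunit of the chromatin assembly factor that places histones behind the fork, had 10.1 FPKM with siCRABP2 and 17.1 FPKM with siControl in FTC-133, 6.01 FPKM with siCRABP2 and 6.41 FPKM with siControl in BHT-101, and 4.03 FPKM with the CRABP2 vector and 2.10 FPKM with the empty vector in 8505C. Both were lower with siCRABP2 and higher with the vector, in BHT-101 beyond counting error for UHRF1 alone.

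Whether members followed CRABP2 in every line was asked next. Of the 36 members, 24 were lower with siCRABP2 in both siRNA lines and higher with the vector in 8505C, and among the 28 measured in all lines 21 were, against 11.7% of 9699 genes measured in all lines. With every counting interval clear of 1 the pattern held for 9 members, against 2.79% of 5128 genes: CDT1, MCM2, MCM3, MCM4, MCM5, MCM7, PRIM1, RRM2 and UHRF1. MCM6 was the one MCM2-7 subunit not among them. On the log2(FPKM + 1) scale, which compresses genes under 1 FPKM such as those in 8505C, the sizes were not shared as closely as the signs. Across the 36 members, which are not independent replicates, differences in FTC-133 and BHT-101 had a Pearson correlation of 0.41 (Spearman 0.36), those in 8505C and FTC-133 had -0.19 (Spearman -0.09), and those in 8505C and BHT-101 had -0.34 (Spearman -0.19). Differences in 8505C are CRABP2 vector minus empty vector, so a negative value there means that members lower with siCRABP2 tended to be higher with the vector. No libraries are shared between these lines.

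The difference was then tested over lines with limma, with the cell line as a block. For siCRABP2 minus siControl over FTC-133 and BHT-101, none of 12953 genes passed a Benjamini-Hochberg adjusted p of 0.05 in either direction (0.0% higher and 0.0% lower), and neither did any member. At an unadjusted p under 0.05 there were 4 members lower (MCM2, MCM4, PRIM1 and UHRF1) and none higher, against 225 genes (1.74%) lower and 314 (2.42%) higher. PRIM1 had -0.92 (SE 0.25) with an adjusted p of 0.869, and UHRF1 -0.79 (SE 0.27) with the same adjusted p in limma. For lower minus higher CRABP2 over all 3 lines, 35 members were tested, without POLA2, and again none of 11628 genes passed. In that fit 13 members were lower at an unadjusted p under 0.05 and none higher, against 179 genes (1.54%) lower and 193 (1.66%) higher. PRIM1 had -0.95 (SE 0.20) and UHRF1 -0.82 (SE 0.21), each with a limma adjusted p of 0.999. Without FTC-133 the count of 13 became 5, and without 8505C it became 4, while without BHT-101 it was again 13. The siRNA fit has 1 residual degree of freedom and the other fit 2. Their p-values set the mean difference against its variation between lines, which limma moderates with a variance trend over all genes. That trend counts for 5.13 and 5.17 degrees of freedom, more than the lines themselves. In the 3-line fit the variation between lines also includes siRNA against vector.

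Other genes of the cell cycle were set beside the members from lists drawn up for this comparison. In FTC-133 the medians were -0.18 for 31 other replication fork and origin genes, -0.22 for 19 other nucleotide synthesis genes, -0.30 for 9 other replication-coupled chromatin genes and -0.17 for 31 E2F, RB and G1/S regulators. In 8505C the same lists had 0.13, 0.26, 0.20 and 0.27, and in BHT-101 0.02, -0.03, -0.01 and -0.01. None of their genes passed the limma fits over lines. The members thus lay further from 0 than each of these lists in FTC-133 and 8505C, a difference that was not tested. This did not hold for the mitosis genes taken up below. In 8505C their median of 0.71 lay further from 0 than the members' 0.43, and in FTC-133 their -0.41 lay nearer than the members' -0.53.

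CLSPN, a checkpoint mediator at the fork, had 3.79 FPKM with siCRABP2 and 8.09 FPKM with siControl in FTC-133. ASF1B, a histone chaperone, had 24.6 FPKM with siCRABP2 and 42.9 FPKM with siControl in FTC-133. E2F1, an activating E2F factor, had 19.1 FPKM with siCRABP2 and 26.1 FPKM with siControl in FTC-133, 11.0 FPKM with siCRABP2 and 13.5 FPKM with siControl in BHT-101, and 3.67 FPKM with the CRABP2 vector and 2.86 FPKM with the empty vector in 8505C. E2F1 therefore had the same sign as most members in each line. CDKN1A, which encodes the p21 inhibitor of cyclin-dependent kinases and of PCNA, had 32.8 FPKM with siCRABP2 and 9.39 FPKM with siControl in FTC-133, 33.02 FPKM with siCRABP2 and 42.1 FPKM with siControl in BHT-101, and 17.2 FPKM with the CRABP2 vector and 23.9 FPKM with the empty vector in 8505C. CDKN1A was thus higher with siCRABP2 in FTC-133, at 1.70, and lower with it in BHT-101, at -0.34, and its part in the members' values was not tested. CCND1, cyclin D1, differed less, with 25.05 FPKM with siCRABP2 and 27.7 FPKM with siControl in FTC-133, 26.0 FPKM with siCRABP2 and 30.5 FPKM with siControl in BHT-101, and 55.8 FPKM with the CRABP2 vector and 57.1 FPKM with the empty vector in 8505C.

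Mitosis genes ran in the direction of the members in FTC-133 and 8505C and not in BHT-101. Of 30 mitosis genes, 27 were lower with siCRABP2 in FTC-133 (median -0.41), 22 were higher with siCRABP2 in BHT-101 (median 0.14) and 29 were higher with the CRABP2 vector in 8505C (median 0.71). They summed to 3653 CPM with siCRABP2 and 5002 CPM with siControl in FTC-133, 1999 CPM with siCRABP2 and 1843 CPM with siControl in BHT-101, and 288 CPM with the CRABP2 vector and 109.6 CPM with the empty vector in 8505C. In BHT-101 the replication and mitosis genes thus had medians of opposite sign. MKI67, the proliferation marker, had 9.74 FPKM with siCRABP2 and 16.7 FPKM with siControl in FTC-133, 7.86 FPKM with siCRABP2 and 8.62 FPKM with siControl in BHT-101, and 0.941 FPKM with the CRABP2 vector and 0.290 FPKM with the empty vector in 8505C. CDK1, the mitotic kinase, had 5.31 FPKM with the CRABP2 vector and 0.724 FPKM with the empty vector in 8505C, and 24.9 FPKM with siCRABP2 and 21.6 FPKM with siControl in BHT-101. The part of the share of cycling cells in the members' values was not tested.

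**Figure D3:**
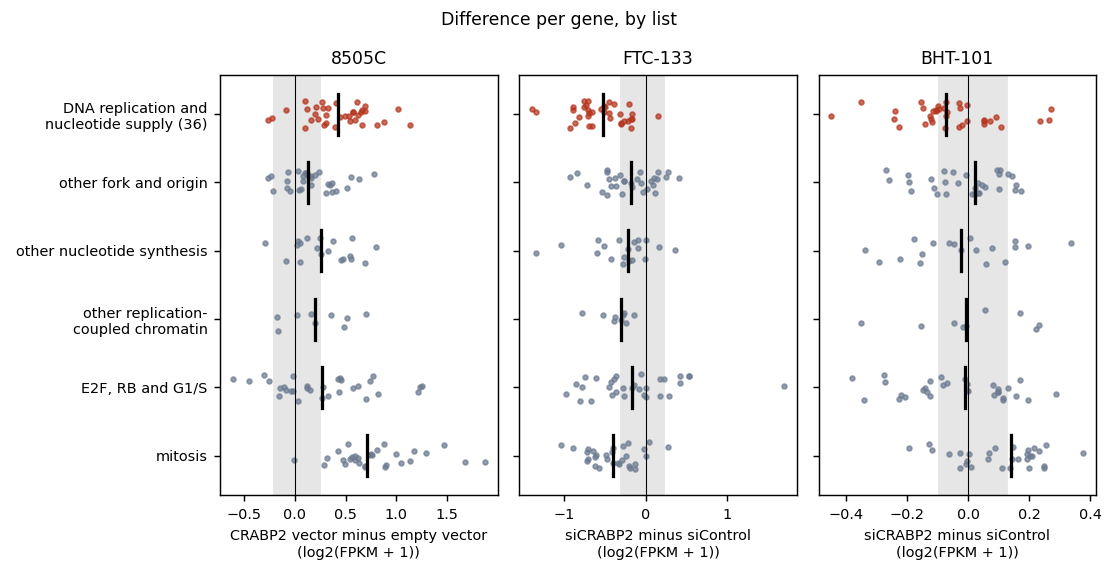
Difference of each gene (points) on the log2(FPKM + 1) scale, siCRABP2 minus siControl in BHT-101 and FTC-133 and CRABP2 vector minus empty vector in 8505C, for the members and 5 other lists; black bars are list medians and the grey band is the middle 50% of all measured genes of the line. The members lie left of 0 in FTC-133 and right of 0 in 8505C, and the mitosis genes lie right of 0 in BHT-101, where the members do not.

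The level of the members separated the lines. 8505C had the lowest levels, whatever the vector. There 8 members were under 1 FPKM with the CRABP2 vector and 15 with the empty vector, against none in FTC-133 and 1 in BHT-101 per library. Of all genes, 11731 reached 1 FPKM in 1 or both libraries of 8505C, against 12832 in FTC-133 and 12055 in BHT-101. In limma with the CRABP2 arm as a covariate, 35 of 36 members were lower in 8505C than in the mean of the other lines at an adjusted p under 0.05, against 37.9% of 13736 genes lower and 27.7% higher. The 2 libraries of a line, which differ in treatment, stand in for replicates here. The median of the members was -1.72, against -0.14 for all genes. With quantile normalization the median of all genes was 0.02 and that of the members -1.60, and 33 members passed.

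TK1, MCM7 and TYMS had the widest gaps on the log2(FPKM + 1) scale, which compresses genes under 1 FPKM. By mean FPKM, the ratio of 8505C to FTC-133 and to BHT-101 was 0.00945 and 0.00982 for TK1, 0.0423 and 0.0666 for ORC1, and 0.0931 and 0.102 for MCM7, so ORC1 was further apart than MCM7 by that measure. TK1 was lower in 8505C, at -4.97 (SE 0.22, limma adjusted p 6.81e-05), with 0.0949 to 0.736 FPKM in 8505C against 30.4 to 57.5 FPKM in the other lines. MCM7 was at -3.30 (SE 0.19), TYMS at -2.98 (SE 0.19), CDT1 at -2.53 (SE 0.15) and RRM2 at -2.50 (SE 0.24). At the other end POLA2 was at -0.58 (SE 0.13) and MCM6 at -0.91 (SE 0.14). GINS4 was at -0.62 (SE 0.20, limma adjusted p 0.0321), and its 8505C values of 1.63 FPKM with the CRABP2 vector and 1.18 FPKM with the empty vector overlapped those of BHT-101, 1.48 FPKM with siCRABP2 and 1.69 FPKM with siControl. POLA1 was the one member not lower in 8505C, at 0.46 (SE 0.24, limma adjusted p 0.137, 95% interval -0.13 to 1.04), and without the FTC-133 siControl library it passed as higher. For the 34 members other than GINS4 and POLA1, the 8505C libraries lay below all 4 others. The share of all genes with that pattern was not counted, so the 34 describe the members only.

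**Figure D4:**
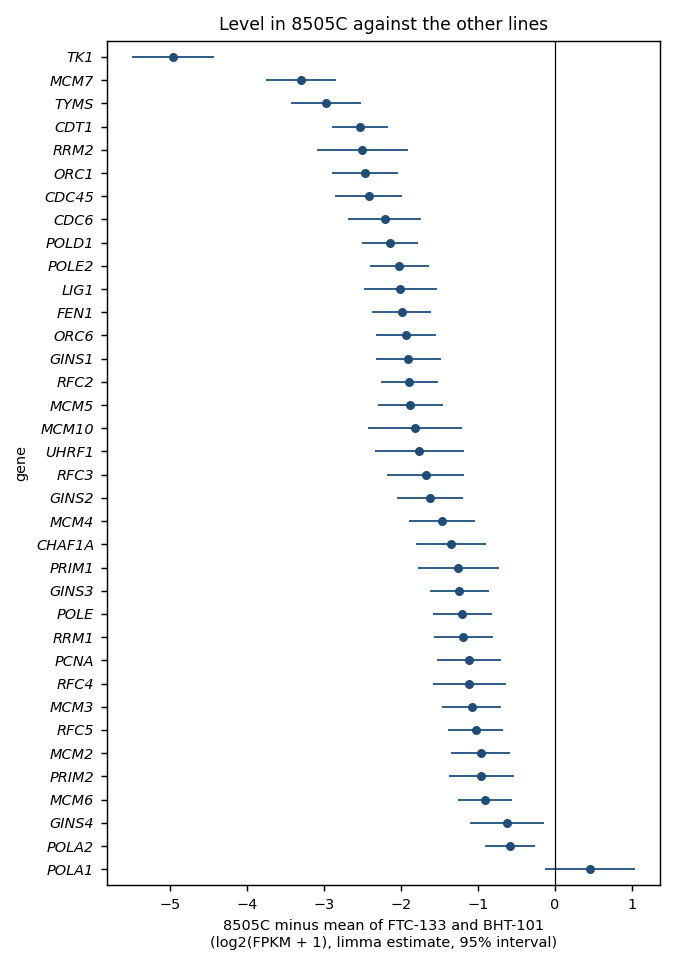
limma estimate of the level in 8505C minus the mean of BHT-101 and FTC-133 for each member on the log2(FPKM + 1) scale, with 95% interval bars. All points but POLA1 (0.46) lie left of 0, and TK1 (-4.97) lies furthest left.

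Mitosis genes were low in 8505C as well, and the other lists were nearer to all genes. All 29 mitosis genes tested were lower there at the same threshold (median -3.06), against 37.9% of all genes. Of 30 other fork and origin genes 18 were lower and 5 higher (median -0.69), and of 19 other nucleotide synthesis genes 9 were lower and 3 higher (median -0.45). Of 30 E2F, RB and G1/S regulators 14 were lower and 5 higher (median -0.45). Of 9 other replication-coupled chromatin genes 4 were lower and 3 higher, and their median of -0.05 lay above the -0.14 of all genes. The members' median lay between that of the mitosis genes and those of the other lists.

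FTC-133 and BHT-101 differed less. In the same limma fit 16 members were higher in FTC-133 at an adjusted p under 0.05, against 28.3% of all genes, and 1 was lower, against 17.7%. FEN1 was higher in FTC-133 by 1.39 (SE 0.18, limma adjusted p 0.00171) and TYMS by 1.11 (SE 0.22). PRIM2 was at 1.04 (SE 0.20) and GINS4 at 1.03 (SE 0.23), while MCM4 was lower in FTC-133, at -1.34 (SE 0.20, limma adjusted p 0.00322). The count of 16 rested on single libraries: it was 1 without the BHT-101 siControl library, 8 without BHT-101 siCRABP2 and 8 without FTC-133 siControl. For MCM4, the FTC-133 values of 21.9 and 40.9 FPKM lay below the BHT-101 values of 71.2 and 84.6 FPKM with siCRABP2 and siControl alike.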

How the data were processed

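Trizol was used for RNA extraction and Illumina protocols for the libraries, 1 for each of 6 conditions, per the labels. The values the authors deposited are FPKM. FastQC, Trimmomatic 0.38, featureCounts 2.0.0 and the build GRCh38 are named in GEO, per the submitters' processing notes. Strand setting, aligner and annotation release remain not given in the sources used here. Gene names, positions and exon overlaps are from GENCODE release 29 (GRCh38), and promoters from RefSeq (GRCh38.p14).

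Reads were recovered from FPKM and exon length: the release 29 length gave whole reads, within 0.001, for 74.9% of 33848 genes above 0 and for 16 of 36 members. For the other 20 a searched length gave whole reads within a looser tolerance.

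Values were analysed as log2(FPKM + 1). A gene was measured in a line with FPKM of at least 1 in 1 or both libraries. Tests between conditions and lines used limma 3.58.1 in R 4.3.3, with a trend in the variance, on genes with FPKM of at least 1 in 2 libraries (3 in the 3-line fit) and Benjamini-Hochberg adjustment at 0.05. The cell line named in the labels pairs libraries and is the block. Scripts (Python 3.11.15) were tested on simulated data.

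Values in all libraries are given for members at least 1 apart in a line, the 3 most different of each role (2 in roles of 2 to 4 genes) and those against the members' median in FTC-133 or 8505C; MCM7 was added after its values were seen. Of other lists, up to 4 of the most different genes with FPKM of at least 5 could be named, with MKI67, CDKN1A, E2F1, CCND1 and CRABP2; RRM2B was added as a partner. Promoters are of the most different member of a role, outside chromosome 8. Members and lists were chosen with earlier results of these data known.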

Additional observations from a re-analysis of the deposited data

Results flagged for a closer look

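In 4 members the siCRABP2 minus siControl difference had opposite signs in FTC-133 and BHT-101, with both counting intervals clear of a ratio of 1. All were lower in FTC-133, where 38.3% of all genes had an interval below 1. They were higher in BHT-101, where 22.0% of all genes had an interval above 1. The share of all genes with both was not counted, so the 4 are listed without a background. MCM10 was at -0.93 in FTC-133 and 0.27 in BHT-101 on the log2(FPKM + 1) scale. PCNA was at -0.51 in FTC-133 and 0.072 in BHT-101. RFC3 was at -0.31 in FTC-133 and 0.23 in BHT-101, and RRM1 was at -0.19 in FTC-133 and 0.27 in BHT-101. With 1 library per condition, the difference between the lines was not tested.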

How the results depend on the processing

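Of 321 recomputed values, 287 stayed within the limits set for a change and 34 moved. The members' medians kept their sign under every alternative run, while the median of all genes in BHT-101, 0.01, was -0.00093 with quantile normalization. The median of the members in FTC-133 ran from -0.49 with the median of all genes set to 0 to -0.62 with pseudocount 0.1, and 18 to 21 members were at least 0.5 lower. In 8505C the median of 0.43 became 0.73 with no pseudocount (chosen after seeing the data). In BHT-101, where no member was at least 0.5 lower, 1 was with pseudocount 0.1, with a GC and length trend removed, and with no pseudocount. Counts over all genes in BHT-101 moved with the scale and filter: 285 genes were at least 0.5 higher and 200 lower, against 497 and 389 with pseudocount 0.1, 471 and 355 with no filter, 523 and 393 with no pseudocount, and 187 and 126 with a mean FPKM of at least 1 over 6 libraries (also chosen after seeing the data). In 8505C 928 genes were at least 0.5 lower, against 1397 with no pseudocount.

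Leaving the replicate block out of the siRNA and 3-line fits, 0 genes passed as before, and the members lower at an unadjusted p under 0.05 went to 0 in each fit. The siRNA fit could not be run without a line, which leaves no residual degrees of freedom, and the 3-line fit without 8505C is the siRNA fit. Leaving out each line in turn, 0 to 6 genes passed as higher and 0 to 4 as lower in the 3-line fit, with 1 lower without BHT-101 and 6 higher and 4 lower without FTC-133; no member was among them. For the level in 8505C, leaving out single libraries gave 33 to 34 members lower and 0 to 1 higher. For FTC-133 against BHT-101 it gave 1 to 20 members higher and 1 to 2 lower, and 1748 to 4207 genes higher and 855 to 2641 lower; where 1 library of a line is left, it is assumed to vary like the others. That comparison also gave 6 members higher with no filter, and 11 higher and 3 lower with quantile normalization. The cause of these changes was not tested. Read counts limit members of low FPKM, such as MCM10 and TK1 in 8505C, whose counting intervals are wide; read totals of the 8505C libraries, 22084110 and 22849556, were close to the 22340806 of BHT-101 siCRABP2.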
